A study of Mus musculus with 8 samples.

Results

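Heat shock proteins and DnaJ proteins are the molecular chaperones of the cell, and their RNA was compared in the brain cortex of mice fed a normal or a high fat diet. The genes were all protein-coding genes of the deposited values whose symbol starts with Hsp or Dnaj, apart from Hspg2, which encodes an extracellular proteoglycan. This choice gave 64 of 13996 genes, with 25 named Hsp and 39 named Dnaj. The rule itself uses names and not measured values, but it was chosen with earlier results of these data known. All mice were C57BL/6 males of 16 weeks, killed under ether. The 4 mice of the normal group stayed on normal diet, while the 4 of the high fat diet (HFD) group ate a diet with 60% fat from 8 weeks of age for 8 weeks. Each mouse gave 1 library of rRNA-depleted, stranded RNA from the cortex. The values are FPKM (read fragments scaled by transcript length and by the mapped reads of the library), which correct for transcript length, so that levels of different genes may be set side by side. How many reads stand behind each value is unknown.

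Chaperones bind unfolded or partly folded proteins and keep them from aggregating, mostly by cycles of ATP hydrolysis. Hsp70 proteins do so together with DnaJ proteins, whose J domain stimulates the Hsp70 ATPase, and with Hsp110 proteins, which exchange the nucleotide. Hsp90 proteins act later on kinases and receptors with a set of cochaperones, the mitochondrial chaperonin and the cytosolic chaperonin CCT fold proteins inside a chamber, and small heat shock proteins hold clients without ATP. In neurons Hsp70 and DnaJ proteins also strip clathrin from synaptic vesicles. Heat shock factors bind heat shock elements in the promoters of inducible members. Stress of the endoplasmic reticulum (ER) acts on other members through an ER stress element.

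Promoter sequences were read to see which members carry these elements. The RefSeq promoters of GRCm38.p6 (250 bases before to 50 after a start) covered 53 of the 64 genes. The other 11 were Hsp90aa1, Hsp90ab1, Hspa8, Hspa9, Hspa13, Dnajc2, Dnajc5, Dnajc11, Dnajc12, Dnajc18 and Dnajc30. A heat shock element was searched as GAANNTTC or TTCNNGAA, each of which reads the same on both strands, and the ER stress element as CCAAT, 9 bases and CCACG on either strand, so that each match of the latter also holds a CCAAT box. A heat shock element was found for 15 of 53 members (28.3%), against 17% of all 27025 genes with a promoter in the table. A run of 3 alternating units, each 2 bases from the next, was found for 4 members (7.55%, Hspd1, Hspe1, Hsph1 and Dnajb6) against 0.662% of all. The ER stress element was found for 3 members (5.66%, Hsp90b1, Hspa5 and Dnajc3) against 0.137% of all. The stretches of 4 members are shown because they hold runs of the heat shock element or the ER stress element in genes whose values follow. Capitals mark the letters of the elements, and each sequence reads 5′ to 3′ on the strand of its gene.
Hspe1, chr1:55088053-55088082, plus strand: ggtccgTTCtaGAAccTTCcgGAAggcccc
Dnajb6, chr5:29735843-29735872, plus strand: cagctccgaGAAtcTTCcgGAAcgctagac
Hsp90b1, chr10:86705525-86705674, minus strand: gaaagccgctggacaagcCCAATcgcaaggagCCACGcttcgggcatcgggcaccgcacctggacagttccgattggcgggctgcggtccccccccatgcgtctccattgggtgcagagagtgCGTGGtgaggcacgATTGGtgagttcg
Hspa5, chr2:34772019-34772048, plus strand: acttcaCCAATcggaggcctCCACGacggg

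The Hspe1 stretch lies between Hspe1 and its neighbor Hspd1, which are transcribed in opposite directions, and the same run was found in the window of Hspd1. In the GENCODE annotation it falls in the first exon of an Hspd1 transcript, and the Dnajb6 and Hspa5 stretches fall in first exons of their own genes. Hsp90b1 held the ER stress element at 2 places, the second on the opposite strand. Among the members that were lower in HFD mice, 4 of the 16 with a promoter held a heat shock element (25.0%), and among those that did not pass the test 10 of 34 did (29.4%). The run of 3 units was found for 3 of these 16 (18.8%) and for 1 of these 34 (2.94%). These are counts of letters in few genes, not of bound sites.

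Chaperone RNA was lower in the HFD mice. The FPKM of the 64 genes summed to 3678.3, 3968.0, 3719.9 and 3597.1 in normal mice 1 to 4 and to 3279.6, 3247.6, 3183.5 and 3297.3 in HFD mice 1 to 4. Every HFD mouse lay below every normal mouse, and the mean sum was 13.1% lower (3741 ± 160 against 3252 ± 50.1, SD, n = 4). The sum over Hsp genes was 15.9% lower and that over Dnaj genes 5.47% lower. Hspa8 alone held 25.6% ± 1.04 of the sum in normal mice, so the sum follows few genes, and without Hspa8 it was 11.1% lower.

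For each gene, the diets were compared on the scale of log2(FPKM + 0.1) with limma, and p was adjusted over 13982 genes. SE is the standard error of a log2 fold change. A fold change is the HFD level against the normal level on that scale, which understates changes of low genes. All 64 members were within the filter. Of these, 25 passed an adjusted p of 0.05, with 21 lower and 4 higher in HFD mice, and 39 did not pass. Over all genes tested, 33.1% passed, 17.7% higher and 15.3% lower, while 39.1% of the members passed, 6.25% higher and 32.8% lower. The median log2 fold change was -0.14 over the members and 0.00 over all genes, and 70.3% of the members had a negative value against 49.4% of all genes. Values did not overlap between the diets for 22 members (34.4%), 20 of them lower, against 31.9% of all genes. Most changes were small. Of the called members 1 (Hspb11, 35.3% lower) also differed by more than 1.5-fold, against 7.13% of all genes.

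**Figure D1:**
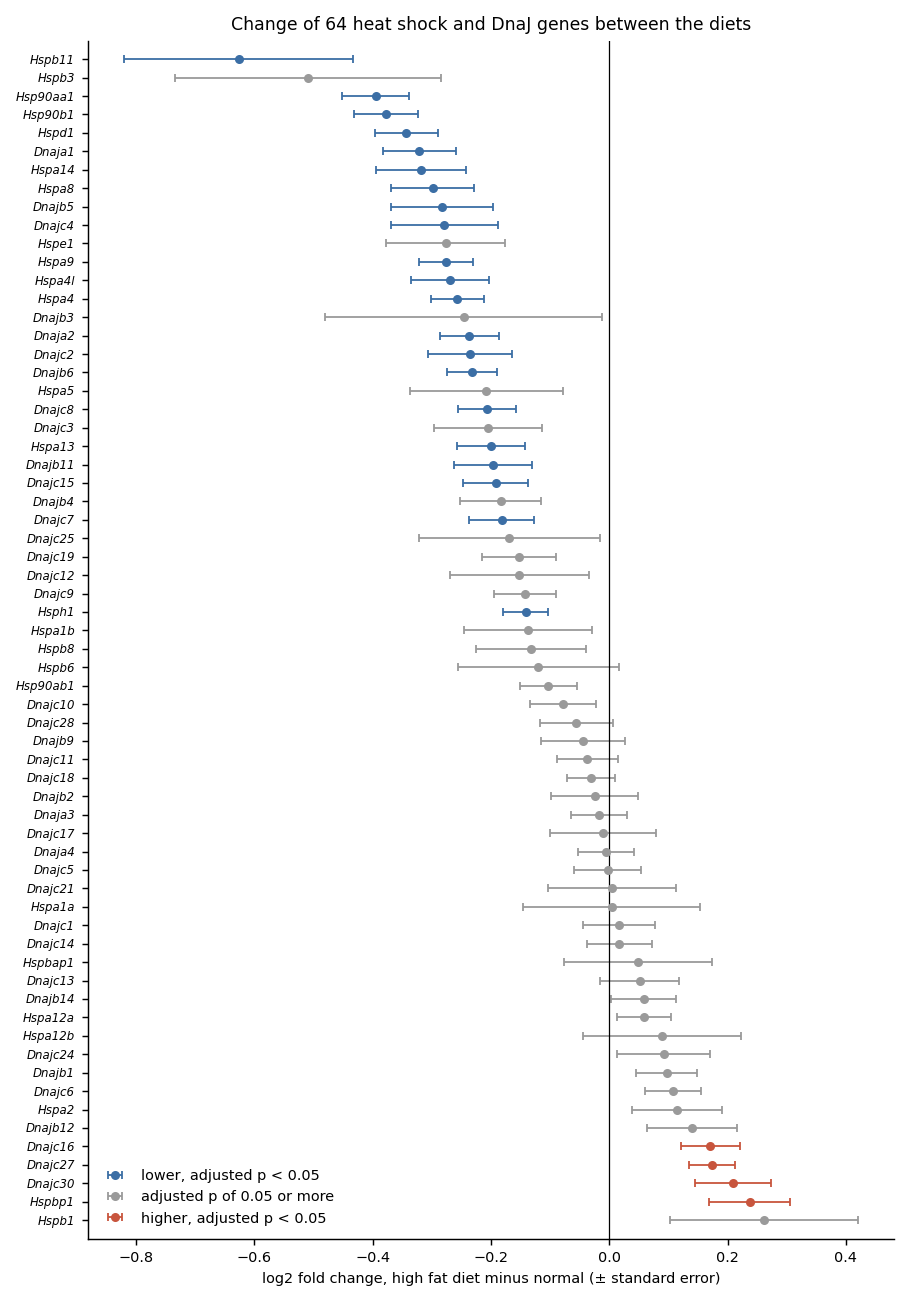
Log2 fold change (HFD minus normal, horizontal axis) of each of the 64 genes with its standard error from limma, with the 21 lower members in blue, the 4 higher in red and the 39 that did not pass in grey. Hspb11 lies lowest at -0.63, and the 4 red points lie between 0.17 and 0.24.

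Abundant and scarce members were counted apart. Of the 17 members with a mean of at least 50 FPKM, 12 were lower (70.6%) and 0 higher by limma, where 43.7% of protein-coding genes at that level passed, 24.8% lower and 18.9% higher. Of the 47 members under 50 FPKM, 13 passed (27.7%), 9 lower (19.1%) and 4 higher, where 31.9% of protein-coding genes at that level passed, 15.8% lower and 16.2% higher. The cut of 50 FPKM was not a planned one, and the counts depend on where it lies. Dnaja1 (51.8) and Dnaja2 (51.6), both lower, were just above it. Among the most abundant members, Hspa8, Hsp90aa1 and Hsp90b1 were lower, while Hsp90ab1, Hspa5 and Dnajc6 did not pass. None of the 9 members under 5 FPKM passed, and at an FPKM rounded to 0.1 such genes are measured coarsely.

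**Figure D2:**
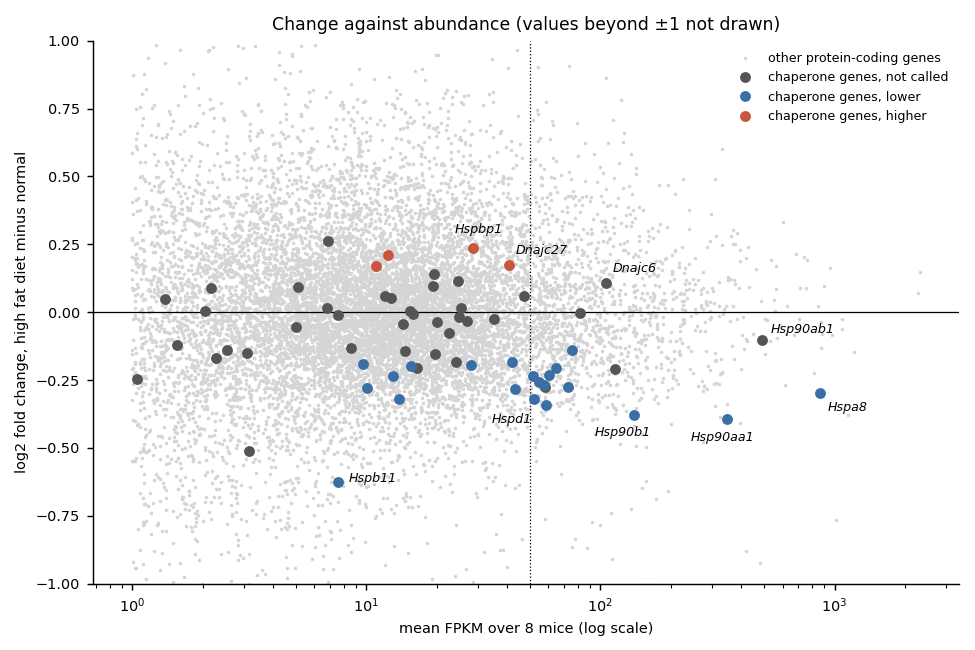
Mean FPKM over the 8 mice (log scale, horizontal) against log2 fold change, HFD minus normal (vertical), for the 64 members over the other protein-coding genes in pale grey. To the right of the dotted line at 50 FPKM, 12 of 17 members are blue (lower) and 0 are red (higher).

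Other RNAs also differed between the cortexes. RNAs of the striatum were lower in HFD mice for 6 of 6 markers (sums of 184.2 to 344.7 FPKM in normal and 50.3 to 60.6 in HFD mice), as were those of myelin for 6 of 6 (2019.1 to 3338.7 against 1396.4 to 1937.4), ependyma for 5 of 5 (15.3 to 26.9 against 6.8 to 12.8) and thalamus for 2 of 5 (56.7 to 177.6 against 40.9 to 46.9). The 4 detected cerebellar markers summed to 8.8, 143.6, 206.9 and 45.3 in normal mice 1 to 4 and to between 6.3 and 10 in HFD mice, with Gabra6 at 0 in a mouse. Normal mouse 1 lay below every HFD mouse for Cbln1, but above every HFD mouse for Gabra6, Cbln3 and Fat2. Hemoglobin and other blood RNAs were lower for 5 of 5 (239.2 to 479.7 against 199.1 to 247.4), and choroid plexus RNAs for 2 of 5, with sums of 342.6 to 726.6 in normal mice and 76.6, 20.9, 27.4 and 941.6 in HFD mice 1 to 4. Of 6 astrocyte and of 6 endothelial markers, 2 each were lower and 1 each higher. Clock genes that peak with Per genes were higher for 7 of 8 (153.1 to 177.9 against 237.8 to 248.3), while 5 of 10 immediate early genes were lower. Markers of neurons were present in every mouse (1500.5 to 2197.3), 1 of 7 higher (Slc17a7) and 2 lower (Gad1 and Gad2). Of the microglial markers, 0 of 6 differed by limma. Mitochondrially encoded genes held 2.60 and 2.63% of FPKM in HFD mice 2 and 3 and 1.55 to 1.73% in the other mice. In such tissue, fewer cells of a type and less RNA per cell cannot be told apart, and apart from the cerebellar covariates given next, the part of these RNAs in the chaperone values was not tested.

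The 3 cerebellar markers within the filter were also entered in the fit. With their log2 level as a covariate, 25 of the 25 called members had the same sign and kept a median of 71.8% of their log2 fold change. Standard errors rose by a median factor of 1.69, and 2 members (Dnaja2 and Dnajb5) still passed, while 3.34% of all genes did. In every normal mouse (-0.90, 3.09, 3.63 and 1.46) this log2 covariate was higher than in any HFD mouse (-2.05 to -1.43). That fit therefore cannot separate cerebellar RNA from diet. Cbln3 and Fat2 were 0.1 to 0.6 FPKM in HFD mice, close to the rounding step of 0.1. With the covariate on the scale of relative FPKM, chosen after seeing the data, 9 of the 21 lower members and 0 of the 4 higher still passed (17.8% of all genes). Without normal mice 2 and 3, which held most cerebellar RNA, 10 lower members passed (19.6% of all genes), and without HFD mice 2 and 3, 8 did (12.5%). Both omissions were also chosen after seeing the data. Hsp90aa1, Hsp90b1, Hspa4, Hspa9, Hspd1 and Dnajb6 passed in these last 3 fits. The counts above are of members already called, and the percentages are of all genes. Over all 64 members, called before or not, 2 passed with the log2 covariate and 11 with the relative covariate. Without normal mice 2 and 3, 11 of 64 passed, and without HFD mice 2 and 3, 8 did. In each of these fits, members thus passed about as often as all genes.

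**Figure D3:**
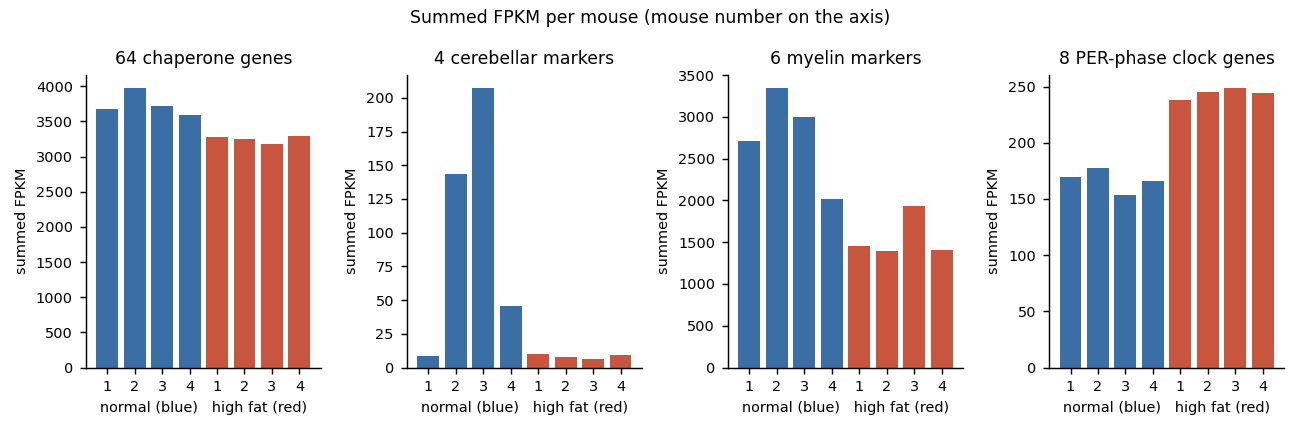
Summed FPKM (vertical axis, from 0) in each of the 4 normal (blue) and 4 HFD (red) mice for the 64 chaperone genes, 4 cerebellar markers, 6 myelin markers and 8 clock genes. The chaperone sum is lower in each HFD mouse, whereas the cerebellar sum is high in normal mice 2, 3 and 4 and low in normal mouse 1 (8.8).

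The Hsp90 family had 3 members, and 2 of them fell, where 15.3% of all genes did. Hsp90aa1 (chromosome 12, 110690605 to 110702728), the stress-inducible cytosolic Hsp90, was 375.8, 411.0, 406.8 and 382.4 FPKM in normal mice and 304.8, 303.3, 275.6 and 315.0 in HFD mice. The diets formed separate groups, and the log2 fold change was -0.40 (SE 0.06, limma adjusted p = 0.00152). Hsp90b1 (chromosome 10, 86690209 to 86705509), the Hsp90 of the ER, whose promoter is shown above, was 149.5, 167.9, 165.0 and 149.0 in normal mice against 117.7, 126.2, 118.1 and 123.4. Its log2 fold change of -0.38 (limma adjusted p = 0.00143) again came without overlap.

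Hsp90ab1, the constitutive cytosolic Hsp90 and the second most abundant member, was 500.3, 523.0, 509.8 and 492.0 in normal mice and 464.5, 478.1, 484.2 and 459.2 in HFD mice. The diets did not overlap here either, but the log2 fold change of -0.10 had a limma adjusted p of 0.125. The ratio of Hsp90aa1 to Hsp90ab1, chosen after the values were seen, was 0.778 ± 0.0199 in normal mice and 0.636 ± 0.0496 in HFD mice (SD, n = 4). A two-sided exact permutation test, with 70 assignments of the mice, gave p = 0.0286, the smallest it can give, and 0.0572 after adjustment over 2 ratios. Pseudogenes share 38.0% of the 100-base words of Hsp90aa1 transcripts, so part of its reads could be assigned elsewhere.

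**Figure D4:**
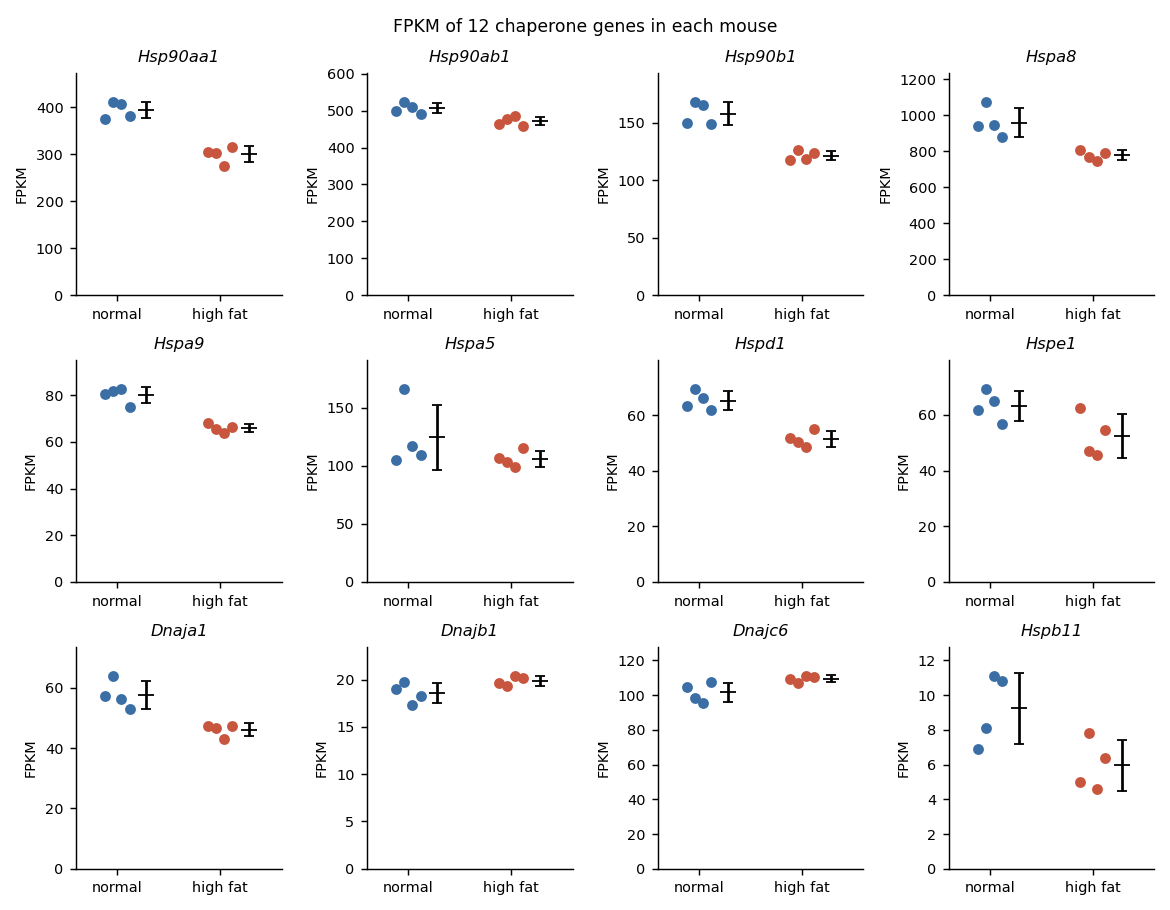
FPKM (vertical axes, from 0) of 12 members in each of 4 normal (blue) and 4 HFD (red) mice, with black bars for mean and SD. The diets do not overlap for Hsp90aa1, Hsp90ab1, Hsp90b1, Hspa8, Hspa9, Hspd1 and Dnaja1, and they overlap for Hspa5, Hspe1, Dnajb1, Dnajc6 and Hspb11.

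Of 8 Hsp70 genes, 4 were lower and 0 higher by limma, where 15.3% of all genes were lower and 17.7% higher. Hspa8 (chromosome 9, 40800984 to 40810087), the constitutive Hsc70 that also uncoats clathrin, was the most abundant member. It was 938.2, 1072.5, 945.8 and 880.0 FPKM in normal mice and 804.8, 770.2, 744.1 and 792.1 in HFD mice, with normal mouse 2 above the others. The log2 fold change was -0.30 (SE 0.07, limma adjusted p = 0.0119). Other genes, mainly pseudogenes, share 28.2% of its 100-base words. Hspa9, the mitochondrial Hsp70, was 80.4, 82.0, 82.7 and 75.0 in normal mice against 68.1, 65.6, 63.9 and 66.6 in HFD mice, without overlap. Its log2 fold change was -0.28 (SE 0.05, limma adjusted p = 0.00243).

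Hspa14, an Hsp70 that works at the ribosome, fell from 15.3 ± 1.2 to 12.2 ± 1.04 FPKM (log2 fold change -0.32, limma adjusted p = 0.012). HFD mouse 2, at 13.8, stood far from the other 3, which held 11.6 or 11.8, and reached normal mouse 4. Its partner at the ribosome, Dnajc2, fell from 14 ± 0.655 to 11.9 ± 1.04 (log2 fold change -0.24, limma adjusted p = 0.03), without overlap. Hspa13, a microsomal Hsp70, fell from 16.6 ± 0.881 to 14.4 ± 0.77 (limma adjusted p = 0.0274).

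Hspa5, or BiP, the Hsp70 of the ER and a classical marker of ER stress, did not pass. It was 105.3, 166.3, 117.3 and 109.4 in normal mice and 106.4, 103.4, 99.3 and 115.5 in HFD mice, so normal mouse 2 carried the difference in the means and the diets overlapped (log2 fold change -0.21, limma adjusted p = 0.24). The strictly heat-inducible Hspa1a and Hspa1b were near the lower limit of the filter, a mean of 1 FPKM. Hspa1a was 2.02 ± 0.206 in normal mice and 2.05 ± 0.37 in HFD mice, and Hspa1b was 2.67 ± 0.222 and 2.42 ± 0.263. These neighbors are nearly identical, and 49.9% of the 100-base words of Hspa1b also occur in Hspa1a, so the split between them is uncertain. Hspa2, best known from the testis, was 23.8 ± 2.54 and 25.6 ± 1.4, with overlap. The distant relatives Hspa12a (46.4 ± 2.2 against 48.3 ± 1.14) and Hspa12b (2.1 ± 0.216 against 2.25 ± 0.332) did not pass.

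All 3 Hsp110 genes fell, where 15.3% of all genes did. Among the families of the 64 members, it was the only 1 of 3 or more genes in which every gene passed. Hsph1 was 79.6, 79.5, 79.2 and 78.1 in normal mice and 69.9, 71.9, 74.6 and 70.6 in HFD mice. The normal mice were close to each other, and the log2 fold change of -0.14 (limma adjusted p = 0.0195) was the smallest of the called members. Hspa4 fell from 59.6 ± 2.35 to 49.9 ± 1.78 (log2 fold change -0.26) and Hspa4l from 62.8 ± 5.67 to 51.9 ± 2.04 (-0.27), with no overlap for either.

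The mitochondrial chaperonin consists of Hspd1 (Hsp60, chromosome 1, 55077835 to 55088243) and its lid Hspe1 (Hsp10), which share the promoter region shown above. Hspd1 was 63.4, 69.4, 66.3 and 61.9 in normal mice and 51.8, 50.3, 48.5 and 55.1 in HFD mice. There was no overlap, and the log2 fold change was -0.34 (SE 0.05, limma adjusted p = 0.00215). Hspe1 was 61.6, 69.3, 64.9 and 56.8 in normal mice and 62.4, 46.9, 45.6 and 54.6 in HFD mice. HFD mouse 1 lay among the normal mice, and the log2 fold change of -0.28 had a limma adjusted p of 0.061, which became 0.0181 without that mouse and 0.0433 without normal mouse 4. The ratio of Hspd1 to Hspe1 was 1.035 ± 0.0382 against 0.994 ± 0.1127 (exact permutation p = 0.686, adjusted p = 0.686), so the pair did not differ detectably in its change.

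Small heat shock proteins among the members were scarce, with 4 detected between 1.55 and 8.6 FPKM, and none passed by limma (0 of 4). Hspb1 (Hsp27) was 5.4, 7.7, 7.4 and 4.6 in normal mice and 7.6, 7.2, 6.5 and 8.3 in HFD mice, and the diets overlapped (log2 fold change 0.26, limma adjusted p = 0.232). It passed, as a higher gene, with the relative cerebellar covariate (limma adjusted p = 0.0256) and without normal mice 2 and 3 (0.0153). A pseudogene shares 44.0% of its words. Hspb3, a muscle form, was 5.6, 2.9, 3.1 and 3.3 against 2.1, 3.5, 2.1 and 2.5, with normal mouse 1 far above the rest (log2 fold change -0.51, limma adjusted p = 0.11). Hspb8 (8.97 ± 0.957 against 8.18 ± 0.78) and Hspb6 (1.62 ± 0.25 against 1.48 ± 0.05) did not pass. Cryab, a small heat shock protein of the lens and of glia that is outside the members, was far more abundant. It was 99.4 ± 10.9 against 87.9 ± 10.5 FPKM and did not pass (limma adjusted p = 0.184).

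Hspb11 carries the name of a small heat shock protein but is Ift25, a subunit of the transport machinery of cilia. It was 6.9, 8.1, 11.1 and 10.8 in normal mice and 5.0, 7.8, 4.6 and 6.4 in HFD mice, and HFD mouse 2 lay above normal mouse 1. Its log2 fold change of -0.63 (SE 0.19, limma adjusted p = 0.0332) was the largest fall, and it passed in 3 of 8 fits without 1 mouse, with an adjusted p of up to 0.0855. Ependymal markers, which include genes of ciliated cells, were lower in the same mice, and their part in it was not tested. Hspbp1, which releases nucleotide from Hsp70, was among the 4 higher members. Its values of 26.7, 26.2, 23.6 and 28.6 in normal mice and 32.3, 28.3, 32.5 and 30.7 in HFD mice overlapped slightly, and the log2 fold change was 0.24 (limma adjusted p = 0.0255). Hspbap1, a binding partner of Hspb1, was 1.35 ± 0.1 and 1.4 ± 0.115.

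DnaJ proteins of class A and B are the general partners of Hsp70. Of 4 class A genes, 2 fell, where 15.3% of all genes did. Dnaja1, a cytosolic partner of Hspa8, was 57.3, 63.9, 56.4 and 52.8 in normal mice and 47.2, 46.6, 42.9 and 47.4 in HFD mice, without overlap (log2 fold change -0.32, limma adjusted p = 0.00499). Dnaja2, the other main cytosolic partner, fell from 55.9 ± 3.47 to 47.4 ± 0.685 (-0.24, limma adjusted p = 0.00735). The mitochondrial Dnaja3 (24.9 ± 0.907 against 24.6 ± 0.929) and Dnaja4 (15.8 ± 0.602 against 15.8 ± 0.37) did not pass, and 44.05% of the exon length of Dnaja4 overlaps Wdr61 on the other strand.

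Of 10 class B genes, 3 fell and 0 rose by limma, where 15.3% of all genes fell and 17.7% rose. Dnajb6, which keeps polyglutamine proteins from aggregating, was 67.7, 65.9, 63.1 and 64.4 in normal mice and 56.5, 53.1, 56.9 and 55.8 in HFD mice. No values overlapped, and the log2 fold change was -0.23 (SE 0.04, limma adjusted p = 0.00368). Other genes share 14.6% of the 100-base words of Dnajb6. Dnajb5 fell from 47.5 ± 6.14 to 38.8 ± 1.9 with overlap (-0.28, adjusted p = 0.033), and Dnajb11, an ER partner of BiP, from 29.9 ± 2.86 to 26.0 ± 0.737 without it (-0.20, adjusted p = 0.0447, both from limma).

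Dnajb1, the classical heat-inducible partner of Hsp70, was 19, 19.8, 17.3 and 18.3 in normal mice and 19.6, 19.3, 20.4 and 20.2 in HFD mice. The diets overlapped, and the log2 fold change of 0.10 was positive, with a limma adjusted p of 0.179. Dnajb4, another inducible member, was 25.8 ± 2.16 against 22.6 ± 1.35 without overlap (-0.18, limma adjusted p = 0.0648). The neuronal Dnajb2 (35.3 ± 3.12 against 34.6 ± 2.56), the ER members Dnajb9 (14.6 ± 1.13 against 14.2 ± 0.998), Dnajb12 (18.5 ± 2.0 against 20.4 ± 0.843) and Dnajb14 (11.8 ± 0.676 against 12.2 ± 0.299) and Dnajb3 (1.12 ± 0.0957 against 0.975 ± 0.377) did not pass.

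Class C holds specialized DnaJ proteins, and of 25 genes 5 fell and 3 rose, near the shares over all genes (15.3% lower and 17.7% higher). Besides Dnajc2, the falls were in Dnajc4 (11.1 ± 1.35 to 9.1 ± 0.693 FPKM, log2 fold change -0.28), Dnajc8, a splicing-related protein (69.5 ± 3.73 to 60.1 ± 1.91, -0.21), Dnajc15, of the mitochondrial inner membrane (10.3 ± 0.523 to 9.0 ± 0.231, -0.19), and Dnajc7, which binds both Hsp70 and Hsp90 (44.7 ± 1.76 to 39.4 ± 2.5, -0.18). Values overlapped for Dnajc4 only. The annotated exons of Dnajc7 share 154 bases with those of Cnp, a myelin gene on the opposite strand, and the sources used here do not say whether strand was used in counting. Dnajc27, a small GTPase with a J domain, was 38.3, 36.9, 37.7 and 39.7 in normal mice and 43.6, 42.2, 42.8 and 43.4 in HFD mice. It rose without overlap (0.17, SE 0.04, limma adjusted p = 0.00982), and it was the 1 of 4 higher members that passed in all 8 fits without 1 mouse. Dnajc16 rose from 10.3 ± 0.465 to 11.6 ± 0.126 (0.17, limma adjusted p = 0.0284), also without overlap. The mitochondrial Dnajc30, whose exons share 26.25% of their length with Bud23 on the other strand, rose from 11.5 ± 0.816 to 13.3 ± 0.726 with overlap (0.21, limma adjusted p = 0.0338).

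The DnaJ proteins of the synapse and the clathrin coat did not pass. Dnajc6 (auxilin), which recruits Hspa8 to clathrin-coated vesicles in neurons and is the most abundant Dnaj gene here, was 104.8, 98.4, 95.6 and 107.5 in normal mice and 109.1, 106.9, 111.0 and 110.6 in HFD mice. HFD mouse 2 lay just below normal mouse 4, and the log2 fold change was 0.11 (limma adjusted p = 0.105), of opposite sign to that of Hspa8. Dnajc5, the cysteine string protein of synaptic vesicles, was 87.6, 77.6, 77.2 and 84.2 against 80.8, 76.5, 87.0 and 81.4, and the diets were mixed. Dnajc13, of endosomes, was 12.5 ± 0.854 against 12.9 ± 0.78.

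Other class C members gave 3 near misses that passed when 1 mouse was left out. Dnajc9, a histone chaperone, was 15.4 ± 0.785 against 13.9 ± 0.37 (-0.14, adjusted p = 0.0582), Dnajc19, of mitochondrial import, 20.7 ± 1.66 against 18.6 ± 0.686 (-0.15, adjusted p = 0.0874), and the ER member Dnajc3 17.8 ± 2.41 against 15.3 ± 0.876 (-0.20, adjusted p = 0.112, all from limma). They passed without normal mouse 2 (0.0391), 3 (0.0333) and 4 (0.0408), and Dnajb4 did without normal mouse 4 (0.0468). The ER members Dnajc10 (23.1 ± 0.126 against 21.9 ± 1.61) and Dnajc1 (6.75 ± 0.387 against 6.83 ± 0.15) and the mitochondrial Dnajc11 (20.3 ± 0.346 against 19.8 ± 1.17) and Dnajc28 (5.12 ± 0.222 against 4.92 ± 0.0957) did not pass. Nor did Dnajc12 (3.27 ± 0.457 against 2.92 ± 0.263), Dnajc14 (25.2 ± 1.36 against 25.6 ± 1.33), Dnajc17 (7.6 ± 0.392 against 7.58 ± 0.946), Dnajc18 (27.2 ± 0.419 against 26.6 ± 0.839), Dnajc21 (15.2 ± 1.25 against 15.3 ± 2.4), Dnajc24 (4.93 ± 0.377 against 5.25 ± 0.311) and Dnajc25 (2.42 ± 0.377 against 2.15 ± 0.37).

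The 13 members listed as heat-inducible, with the constitutive Hspa8 and Hsp90ab1 among them, gave 6 lower and 0 higher by limma. Their median log2 fold change was -0.18. The 6 were Hsp90aa1, Hspa8, Hspd1, Hsph1, Hspa4l and Dnaja1, and the 7 that did not pass were Hsp90ab1, Hspe1, Dnajb4, Dnajb1, Hspb1, Hspa1a and Hspa1b. By place in the cell, 3 of the 10 members listed for the ER were lower (Hsp90b1, Hspa13 and Dnajb11). Of 9 mitochondrial members 3 were lower (Hspd1, Hspa9 and Dnajc15) and 1 higher (Dnajc30). Over all genes 15.3% were lower and 17.7% higher, and these lists are short and may not hold every member of a place. Mouse by mouse, HFD mouse 3 was the lowest of its diet in 13 of the 21 lower members, and normal mouse 2 the highest of its diet in 9.

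Genes that work with the members were examined in 5 lists that hold 59 tested genes, also chosen with earlier results of these data known. Of these 24 passed (40.7%, against 33.1% of all genes), 20 lower (33.9%, against 15.3%) and 4 higher, with a median log2 fold change of -0.12. Of the 4 tested genes around the heat shock factors, 2 were higher and 0 lower by limma (17.7% and 15.3% of all genes). Hsf4, a factor known from the lens, was 4.2, 4.4, 5.2 and 4.6 in normal mice and 6.9, 6.4, 7.9 and 6.8 in HFD mice, without overlap. It rose by 0.60 on the log2 scale (limma adjusted p = 0.00176), in all 8 fits without 1 mouse. Hsf1, the main activator of the heat shock response, rose from 12.4 ± 0.763 to 14.4 ± 1.08 (0.22, limma adjusted p = 0.0386), but values overlapped and it passed in only 2 of those fits, with the adjusted p up to 0.0956. Hsf2 (9.7 ± 0.294 against 9.47 ± 0.299) and Hsbp1, an inhibitor of Hsf1 (134.1 ± 6.61 against 134.9 ± 6.74), did not pass.

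Of 26 cochaperones of Hsp70 and Hsp90, 9 were lower (34.6%, against 15.3% of all genes) and 1 higher. The largest fall was in Ahsa1, the activator of the Hsp90 ATPase, at 91.3, 97.9, 93.1 and 87.2 in normal mice and 69.3, 68.5, 69.1 and 73.2 in HFD mice (log2 fold change -0.40, limma adjusted p = 0.000793). The groups were far apart relative to their spread. The other falls, named after their values were seen, were Ptges3 (p23, -0.36), Fkbp4 (-0.34), Stip1 (Hop, which links Hsp70 to Hsp90, -0.33), Ppid (-0.29), Cacybp (-0.28), St13 (-0.23), Bag1 (-0.20) and Bag5 (-0.16), none with overlap. Bag6, a holdase for membrane proteins, rose from 36.5 ± 2.25 to 45.4 ± 3.75 (0.31, limma adjusted p = 0.0074).

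Among 14 partners in the ER and mitochondria, 2 were lower (14.3%, close to the 15.3% of all genes) and 1 higher. Calr, the calcium-binding lectin chaperone calreticulin, fell from 183.3 ± 15.3 to 150.4 ± 7.2 (-0.28, limma adjusted p = 0.0096), and its relative Canx also fell (-0.26). Clpb, a mitochondrial disaggregase, rose from 16.4 ± 1.4 to 19 ± 0.67 (0.21, limma adjusted p = 0.031), but with the log2 cerebellar covariate its log2 fold change was -0.003. The other 11 genes of the list did not pass. Among them were the ER genes Pdia4 (30.7 ± 5.29 against 25.5 ± 1.75), Pdia6 (53.1 ± 5.56 against 50.4 ± 4.03), Sdf2l1 (9.18 ± 2.61 against 8.8 ± 0.529) and Hyou1 (34.2 ± 1.61 against 37.2 ± 1.84).

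The chaperonin CCT, which folds actin and tubulin, and its feeder prefoldin gave 9 lower of 14 genes (64.3%, against 15.3% of all genes) and 0 higher by limma. All 8 CCT subunits, singled out after their values were seen, were lower without overlap, with a median log2 fold change of -0.24. Cct6a fell most among them, at 63.3, 67.5, 63.8 and 66.0 in normal mice and 55.6, 51.9, 49.8 and 57.2 in HFD mice (-0.28, limma adjusted p = 0.00407). The 8 subunits passed in each of the 8 fits without 1 mouse and under both rescalings, 5 passed with the relative cerebellar covariate, and 0 passed with the log2 covariate. Without normal mice 2 and 3, 6 passed, and without HFD mice 2 and 3, 1 passed. In each of these fits 8 of 8 were negative. Of the prefoldin genes Pfdn1 passed (-0.17).

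**Figure D5:**
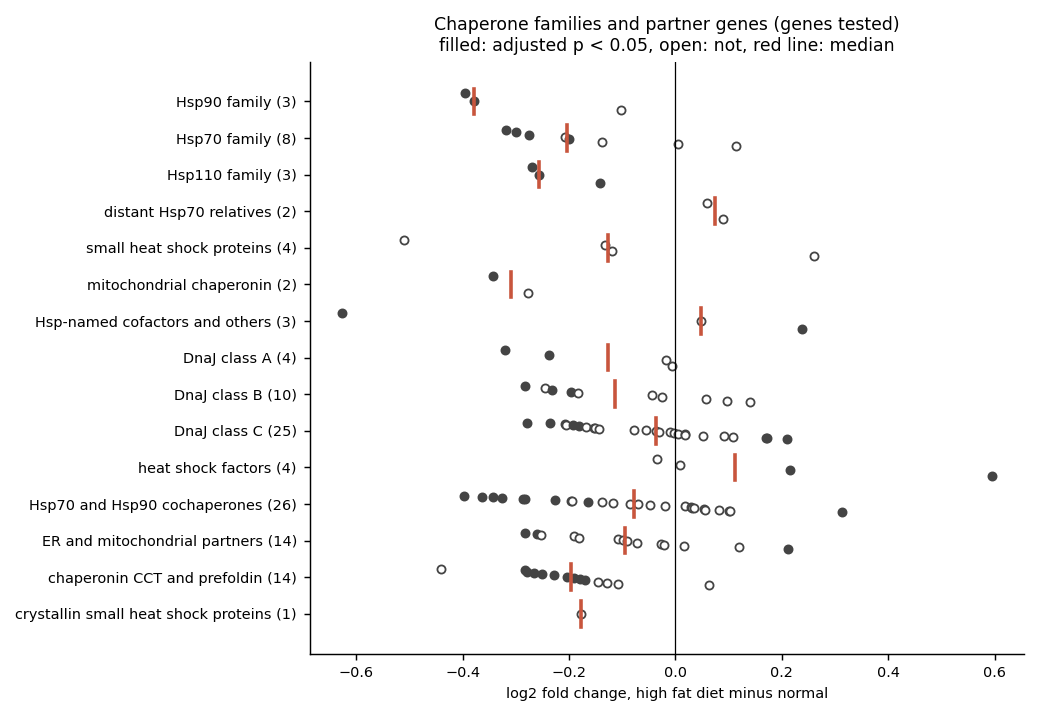
Log2 fold change (HFD minus normal) of each gene by chaperone family and by partner list, with genes tested in brackets, filled circles for an adjusted p below 0.05 in limma, open circles for the rest and a red line at the median. All 3 Hsp110 genes and 9 of 14 CCT and prefoldin genes are filled to the left of 0, and the 2 filled heat shock factors lie to the right.

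In the 8 fits that each omitted 1 mouse, 12 of the 21 lower members always passed. These were Hsp90aa1, Hsp90b1, Hspd1, Hspa8, Hspa9, Hspa14, Hspa4, Hspa4l, Dnaja1, Dnaja2, Dnajb6 and Dnajc8. The other 9 lower members (Hspb11, Dnajb5, Dnajc4, Dnajc2, Hspa13, Dnajb11, Dnajc15, Dnajc7 and Hsph1) and 3 of the 4 higher ones (Dnajc16, Dnajc30 and Hspbp1) lost the threshold in at least 1 fit, with a limma adjusted p as high as 0.105, and each kept its sign. These fits share most of their mice. How many of all called genes always passed was not counted, so these counts do not set the members apart from other genes.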

How the data were processed

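The authors deposited FPKM values for 13996 genes, rounded to 0.1. Per the labels and the study's methods, FastQC, Trimmomatic, STAR (genome mm10) and Cuffnorm (GENCODE basic annotation of GRCm38.p6) were used. The sources used here give no versions. Depth per mouse is unknown, and counting intervals were not computed.

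From these values, log2(FPKM + 0.1) was compared with limma 3.58.1 in R 4.3.3 (two-sided, variance trend, Benjamini-Hochberg adjustment over 13982 genes with a mean of at least 1 and no 0). Separate mice were the replicates. The procedure was tested on simulated data. Tables, exact permutation tests and motif searches used Python 3.11.15, pandas 2.3.3 and scipy 1.17.1. Coordinates are from a later GENCODE release on GRCm38, and some gene models may differ.

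Members and lists were chosen with earlier results of these data known. Genes were named by a rule: members past the threshold, the most abundant of each family, members listed by place in the cell or as heat-inducible, the largest called rise and fall of each partner list, and members with a mouse far from its group or a call that changed without 1 mouse. Alternatives were another added constant, other filters, rescalings, no variance trend, a replicate block, cerebellar covariates and omitted mice. The second quantification of the authors was not used here.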

Additional observations from a re-analysis of the deposited data

Results flagged for a closer look

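In 7 of 128 sets of 4 mice (64 members in each diet), 1 mouse stood far from the other 3 by Dixon's criterion at the 95% level, where chance gives about 1 in 20. Hspa14 was 13.8 FPKM in HFD mouse 2, against 11.6 or 11.8 in the other HFD mice. Hspb3 was 5.6 in normal mouse 1, Hspa2 was 27.7 in HFD mouse 4 and Dnajc18 was 25.4 in HFD mouse 3. The remaining 3 values, Hspbap1 at 1.5 in normal mouse 2, Hspb6 at 1.4 in HFD mouse 3 and Hspa1a at 1.5 in HFD mouse 4, belong to genes near the lower limit, where Hspbap1 and Hspb6 differed from the others by 1 or 2 rounding steps of 0.1. Of these 7 genes, Hspa14 had passed limma's threshold, and it passed in all 8 fits without 1 mouse.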

How the results depend on the processing

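Counts and medians refer to the 64 members, with 25 called (4 higher, 21 lower), 1 past 1.5-fold, 24 partner genes called and a median log2 fold change of -0.135. All 25 kept their sign in every alternative, and all 25 passed limma's threshold with an added constant of 1, no filter, a mean FPKM of at least 5, median-ratio rescaling and quantile normalization, and 21 without the variance trend. With the constant of 1, 0 passed 1.5-fold and the median was -0.111. With the log2 cerebellar covariate, 2 members (0 higher, 2 lower) and 1 partner gene were called and the median was -0.053, and Hspa5 (0.129) and Dnajc3 (0.045), both not called, turned positive. Chosen after seeing the data, the relative covariate gave 11 (1 higher, 10 lower), 10 partner genes and -0.068. Omission of HFD mice 2 and 3 gave 8 (0 higher, 8 lower), 0 past 1.5-fold and 6 partner genes, and omission of normal mice 2 and 3 gave 11 (1 higher, 10 lower), 0 past 1.5-fold, 14 partner genes and -0.064. With 1 mouse left out, called members ranged from 15 to 23, higher from 1 to 4, lower from 14 to 19, those past 1.5-fold from 0 to 1, partner genes from 18 to 25 and the median from -0.138 to -0.093. Shares of all genes were not counted for these fits. The lowest count, 15, came without normal mouse 2, and 16 without HFD mouse 1 or 3, while 1 or 2 higher members were left without normal mouse 1, 2 or 3 or HFD mouse 1, 3 or 4. The replicate numbers do not pair the mice (correlations of same-numbered mice -0.109 to -0.028), and with the replicate number as a block 14 members were called (1 higher, 13 lower), 0 past 1.5-fold, and 24.2% of all genes. Of the 39 members not called, 24 changed sign in at least 1 alternative. The unknown depth and rounding to 0.1 limit members under 5 FPKM.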
